A study of Mus musculus with 8 samples.

Results

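Red blood cells fill themselves with hemoglobin, which is built from alpha-like and beta-like globin chains and the iron-carrying pigment heme. In the mouse embryo the earliest red cells come from the yolk sac, circulate while still nucleated and carry embryonic globins, while the red cells made later in the fetal liver carry adult globins. Any vascularised embryonic organ therefore holds red cell RNA along with its own. The genes described here are 9 genes of the red cell lineage, chosen by name: the globin genes Hba-x, Hbb-y, Hbb-bh1 and Hba-a1, the membrane protein gene Slc4a1, the heme synthesis gene Alas2, the erythropoietin receptor gene Epor, and the transcription factor genes Klf1 and Gata1. Every probe set that the array annotation maps to one of them was used, a probe set being the group of short oligonucleotides that together measure a transcript. That gave 18 of the 45037 probe sets tested. Of these, 15 are annotated to 1 gene each, and 3 are annotated jointly to Hba-a1 and Hba-a2, the paired adult alpha-globin genes.

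Transcripts were measured on 8 Affymetrix mouse arrays, in 4 groups of 2, from gonads at embryonic day 13 of the strain C57BL6/J-Tg92, the only strain or line named for any group. Sertoli cells are EGFP-positive cells sorted from XY gonads (about 22000 cells per sample), and pre-granulosa cells are EGFP-positive cells sorted from XX gonads (about 30000 per sample); EGFP is a green fluorescent protein, and the labels do not name the promoter that drives it. Testes are whole XY gonads and ovaries whole XX gonads, with 4 gonads pooled per sample. Separate animals or litters are not stated for the 2 samples of a group, so the p-values measure only the spread between these samples, which may be technical.

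Values are on a log2 scale, so that 1 unit is a doubling of signal. Arrays of sorted cells had a median value of 5.58 and those of gonads 5.97, and these sets appear to have been normalized separately. Differences between sorted cells and gonads are therefore given less the median difference of all genes, which was -0.29 in the XY comparison (Sertoli minus testis), -0.40 in the XX comparison (pre-granulosa minus ovary) and -0.35 over both sexes, while the p-value tests the difference before that step. A gene is called, or said to have fallen or risen, at a Benjamini-Hochberg adjusted p of 0.01 or less in limma, a linear model fitted to all probe sets. The level 4.78 serves as background: no XX array exceeded it on any of 9 probe sets for 3 Y-linked genes. The root mean square SD between replicates over all probe sets was 0.43 for Sertoli cells, 0.53 for pre-granulosa cells, 0.20 for testes and 0.30 for ovaries. The excess of 3' over 5' signal on control probe sets is a sign of RNA quality. For Gapdh it was 1.94 and 2.69 in Sertoli cells and 3.68 and 1.24 in the pre-granulosa cells. In testes it was 0.72 and 0.95, and in ovaries 1.55 and 1.40. All sorted-cell arrays but pre-granulosa replicate 2 lay above every gonad array for Gapdh. For beta-actin the excess was 2.17 and 2.51 in Sertoli cells and 3.08 and 1.70 in the pre-granulosa cells. In testes that was 1.57 and 1.96 and in ovaries 2.33 and 2.18, so sorted cells and gonads overlapped. The part of RNA quality in the results was not tested. The sort labels matched their markers in direction. All 8 Sertoli markers were higher in Sertoli cells, and all 6 pre-granulosa markers were higher in pre-granulosa cells. Dhh, the hedgehog ligand of Sertoli cells, averaged 12.27 in Sertoli cells against 5.78 in pre-granulosa cells. Foxl2, a granulosa cell transcription factor, averaged 5.31 in Sertoli cells against 9.32 in pre-granulosa cells. The germ cell genes Ddx4 and Dazl averaged 3.74 and 4.15 in sorted cells, against 10.75 and 11.34 in gonads. Of 9 germ cell markers 8 were called lower in sorted cells. Other signals were not low: the germ cell gene Sycp3 read 8.18 and 7.47 in pre-granulosa cells, against 8.72 on both ovary arrays. The Sertoli gene Sox9 read 9.46 and 10.56 there, against 8.07 and 8.41 in ovaries. The Leydig cell gene Cyp17a1 read 8.69 and 10.03 in Sertoli cells, against 11.87 and 11.53 in testes. The source of these signals was not tested.

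The promoters below are shown because Hba-x, Hbb-y and adult alpha-globin were called lower in sorted cells of both sexes, Alas2 in those of 1 sex and Epor in neither. A promoter here is the RefSeq sequence from 250 bases before to 50 after the gene start (build GRCm38.p6), which was found for 7 of the 9 genes, all but Slc4a1 and Hbb-bh1. Hba-x lies at chr11:32276350-32276649 on the plus strand and Hba-a1 at chr11:32283422-32283721 on the plus strand of the same chromosome. Hbb-y lies at chr7:103853158-103853457 on the minus strand, Alas2 at chrX:150547167-150547466 on the plus strand and Epor at chr9:21963527-21963826 on the minus strand. Each is written 5' to 3' along the gene, and capitals mark matches, on either strand, to GATA preceded by A or T and followed by A or G (the GATA letters) and to the CACCC-type letters CCNCNCCC.
Hba-x: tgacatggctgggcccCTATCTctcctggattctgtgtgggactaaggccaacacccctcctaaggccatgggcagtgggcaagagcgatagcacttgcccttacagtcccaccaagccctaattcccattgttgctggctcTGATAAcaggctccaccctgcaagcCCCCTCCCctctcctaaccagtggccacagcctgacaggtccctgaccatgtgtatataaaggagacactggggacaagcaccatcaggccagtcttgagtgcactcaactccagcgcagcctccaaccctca
Hbb-y: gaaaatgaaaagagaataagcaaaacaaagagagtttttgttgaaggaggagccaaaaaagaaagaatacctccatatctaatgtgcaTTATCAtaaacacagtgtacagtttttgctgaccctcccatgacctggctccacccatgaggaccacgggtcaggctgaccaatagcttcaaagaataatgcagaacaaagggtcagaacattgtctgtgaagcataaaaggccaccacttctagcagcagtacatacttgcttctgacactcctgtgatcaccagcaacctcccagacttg
Hba-a1: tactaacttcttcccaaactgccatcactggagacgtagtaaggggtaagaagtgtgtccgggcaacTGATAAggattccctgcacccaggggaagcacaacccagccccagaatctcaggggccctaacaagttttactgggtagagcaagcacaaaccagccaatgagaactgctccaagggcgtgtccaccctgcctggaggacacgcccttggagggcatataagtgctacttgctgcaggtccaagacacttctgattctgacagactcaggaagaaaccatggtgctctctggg
Alas2: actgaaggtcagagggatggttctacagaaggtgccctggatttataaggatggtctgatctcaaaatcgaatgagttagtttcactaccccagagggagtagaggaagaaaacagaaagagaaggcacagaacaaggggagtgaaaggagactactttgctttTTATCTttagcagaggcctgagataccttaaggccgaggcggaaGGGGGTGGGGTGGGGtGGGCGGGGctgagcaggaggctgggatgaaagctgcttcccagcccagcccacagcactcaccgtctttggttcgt
Epor: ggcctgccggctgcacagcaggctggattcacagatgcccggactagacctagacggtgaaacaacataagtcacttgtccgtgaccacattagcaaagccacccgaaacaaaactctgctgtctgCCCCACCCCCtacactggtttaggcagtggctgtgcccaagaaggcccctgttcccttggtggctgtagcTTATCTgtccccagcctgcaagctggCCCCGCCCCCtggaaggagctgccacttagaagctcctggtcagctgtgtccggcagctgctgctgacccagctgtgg
GATA letters stood in 6 of the 7 promoters, Gata1 being the exception, and in 29.8% of the 32851 promoters of the same length. The CACCC-type letters CCNCNCCC stood in 4 of the 7 (Hba-x, Alas2, Epor and Gata1), against 49.5% of all promoters, and no GATA match overlapped a CACCC-type match. The plain letters CACCC were not counted, and they also stand, unmarked, in the promoters of Hbb-y, Hba-a1 and Klf1, which do not match CCNCNCCC. In the Alas2 promoter the 4 matches to the CACCC-type letters began at positions -42, -40, -35 and -26 from the gene start, and the first 3 of them overlap. The GATA letters and CCNCNCCC were both present in Hba-x, Alas2 and Epor, against 10.2% of all promoters. The letters TATAAA, searched on both strands, were found in Hba-x and Alas2 (13.6% of all promoters). The match in Hba-x began at -28 on the strand of the gene, and that in Alas2 at -209 on the opposite strand. CCAAT was found in Hbb-y, Hba-a1 and Klf1 (37.4%). These matches are a description of the letters in the window.

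All 4 globin signals were far lower in sorted cells than in gonads, in both sexes. Hba-x, the embryonic alpha-like (zeta) chain, read 5.14 and 5.31 in Sertoli cells, 6.13 and 5.37 in the pre-granulosa cells, 10.47 and 10.88 in testes and 10.12 and 10.13 in ovaries. Every gonad array stood far above every sorted-cell array, and the sorted-cell arrays all stayed above the background level. Hba-x fell by 5.16 ± 0.28 (SE) in Sertoli cells against testes, or 35.7-fold (adjusted p = 0.000561), and by 3.98 ± 0.28 in pre-granulosa cells against ovaries, or 15.8-fold (adjusted p = 0.000900). The XY call was lost without either testis array. The XX call was lost without moderation, with only the 4 arrays compared, and without either ovary array. In bulk samples such as these, fewer red cells and less of each RNA per red cell cannot be told apart. Its group means ordered as testis, ovary, pre-granulosa and Sertoli, and neither testis and ovary (0.55 ± 0.28) nor Sertoli and pre-granulosa (-0.53 ± 0.28) differed by a called amount.

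Hbb-y, the embryonic beta-like (epsilon y) chain, is measured by 3 probe sets. The brightest read 10.30 and 9.65 in Sertoli cells, 11.50 and 10.30 in the pre-granulosa cells, 13.63 and 13.74 in testes and 13.70 and 13.64 in ovaries. The gonad arrays came near 14.33, the highest value of any probe set on any array, while the sorted-cell arrays still read at least 9.65. Another probe set gave 9.15 and 8.81 in Sertoli cells, 9.04 and 9.10 in the pre-granulosa cells, 13.67 and 13.89 in testes and 13.72 and 13.56 in ovaries. Sorted cells and gonads did not overlap on either, as for 17622 of all 45037 probe sets. Pre-granulosa replicate 1 was the highest sorted-cell array on the brightest probe set and not on that one. The name of the brightest ends in x_at, which marks probes that can also bind other transcripts. Hbb-y fell by 3.42 ± 0.41 in Sertoli cells against testes (10.7-fold, adjusted p = 0.00289) and by 2.37 ± 0.41 in pre-granulosa cells against ovaries (5.17-fold, adjusted p = 0.00722). The XX call was lost after median centring (adjusted p = 0.0130) and after quantile normalization over all 8 arrays. It was also lost without moderation, with only the 4 arrays compared, and without any 1 Sertoli, testis or ovary array. The XY call was lost without moderation and without any 1 Sertoli, testis or ovary array. The probe set not ending in x_at fell by 4.51 and 4.17.

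Hbb-bh1, the other embryonic beta-like chain (beta h1), read 5.91 and 6.73 in Sertoli cells, 6.33 and 6.01 in the pre-granulosa cells, 8.95 and 9.45 in testes and 8.85 and 8.84 in ovaries on its brightest probe set. It fell by 2.59 ± 0.31 in Sertoli cells against testes (6.01-fold, adjusted p = 0.00283) and by 2.28 ± 0.31 in pre-granulosa cells against ovaries (4.86-fold, adjusted p = 0.00379). Both calls were lost without moderation, with only the 4 arrays compared, and without any 1 testis or ovary array. The other probe sets of Hbb-bh1 gave larger falls. On one of them the sorted-cell arrays read 4.29 to 4.94 and the gonad arrays 9.22 to 10.15. On the other, the sorted-cell arrays all lay below background, from 3.71 to 4.01, against 8.80 to 9.81 in gonads. Measured from the background level, that fall was at least 20.8-fold in Sertoli cells against testes and at least 13.4-fold in pre-granulosa cells against ovaries.

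Adult alpha-globin was measured by 3 probe sets shared by Hba-a1 and Hba-a2, whose signal cannot be split between these near-identical genes. The brightest read 7.87 and 8.61 in Sertoli cells, 8.67 and 6.93 in the pre-granulosa cells, 12.40 and 13.02 in testes and 13.18 and 13.05 in ovaries. The pre-granulosa arrays differed from each other more than the arrays of any other group. It fell by 4.17 ± 0.58 in Sertoli cells against testes (adjusted p = 0.00453) and by 4.92 ± 0.58 in pre-granulosa cells against ovaries (adjusted p = 0.00303). The Sertoli call was lost under 8 of 20 alternatives (adjusted p from 0.0116 to 0.0423): without moderation, with a replicate block, and without any 1 Sertoli, testis or ovary array. The pre-granulosa call was lost under 6 of 20 (adjusted p up to 0.0297): without moderation, with only the 4 arrays compared, and without any 1 testis or ovary array. The probe set annotated to Hba-a1 alone read 3.83 to 4.35 on the 8 arrays, below background everywhere, and carries no information on the level of Hba-a1.

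**Figure D1:**
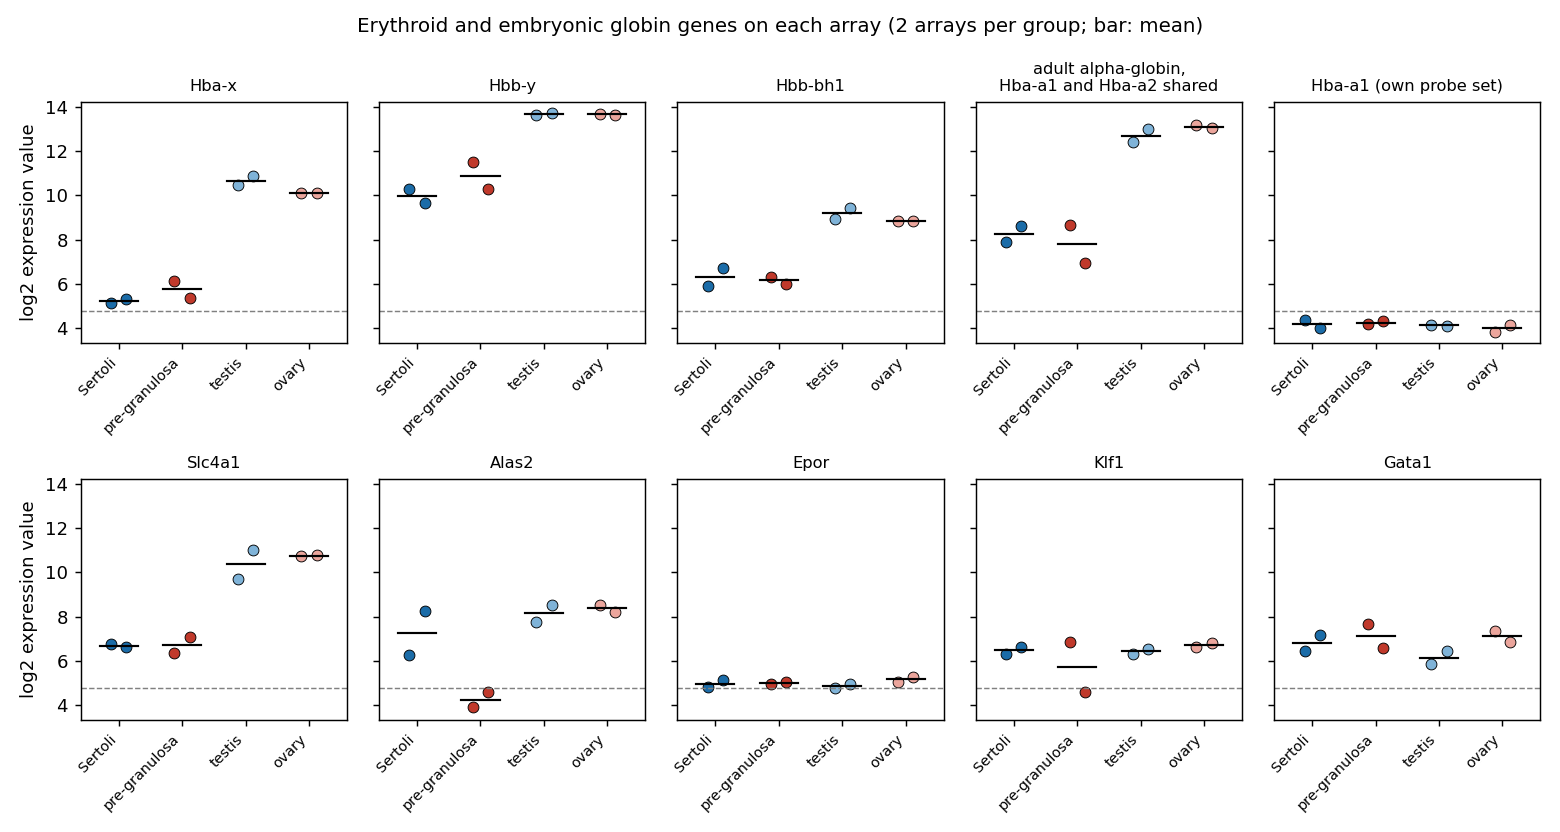
Log2 expression value on each of the 8 arrays for the 9 genes and the shared adult alpha-globin probe set, 1 panel per gene on a common axis. Points are arrays, bars are group means and the dashed line is the background level of 4.78. Apart from the Hba-a1 probe set, globin and Slc4a1 values of sorted cells lie below those of gonads with no overlap. Of all 18193 genes, 7513 did not overlap between sorted cells and gonads, in either direction. Alas2 of Sertoli replicate 2 (8.26) lies among the gonads, and Epor, Klf1 and Gata1 overlap.

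Slc4a1 encodes band 3, the anion exchanger of the red cell membrane. Its brightest probe set read 6.75 and 6.63 in Sertoli cells, 6.36 and 7.08 in the pre-granulosa cells, 9.73 and 11.01 in testes and 10.72 and 10.81 in ovaries. The groups of sorted cells and gonads did not overlap, as for 7513 of all 18193 genes. The testis arrays lay further apart than the ovary arrays. Slc4a1 fell by 3.38 ± 0.44 in Sertoli cells against testes (10.4-fold, adjusted p = 0.00357) and by 3.65 ± 0.44 in pre-granulosa cells against ovaries (12.6-fold, adjusted p = 0.00302). Another probe set fell 6.37-fold and 13.8-fold in the same comparisons. Both calls of the brightest were lost without moderation and with only the 4 arrays compared. The XY call was also lost without any 1 Sertoli, testis or ovary array. The XX call was also lost with a weight per group and without either ovary array. The dim remaining probe set read 4.76 to 5.82 on all arrays. It was called only over both sexes together, for a difference of -0.27 ± 0.12 beyond the median of all genes, and lost the call after median centring (adjusted p = 0.159).

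Alas2, the rate-limiting enzyme of heme synthesis in red cells, was below background in pre-granulosa cells and above it in Sertoli cells. It read 6.26 and 8.26 in Sertoli cells, 3.91 and 4.57 in the pre-granulosa cells, 7.74 and 8.55 in testes and 8.51 and 8.23 in ovaries. Both pre-granulosa arrays were below background, while Sertoli replicate 2 lay within the range of the gonads and above Sertoli replicate 1. In pre-granulosa cells Alas2 fell by 3.73 ± 0.66 against ovaries (adjusted p = 0.00895), which measured from the background level is at least 9.13-fold. In Sertoli cells it differed by -0.59 ± 0.66 from testes, which was not called (adjusted p = 0.372). That value was 0.39 ± 0.44 without Sertoli replicate 1 and -1.56 ± 0.44 without Sertoli replicate 2 (adjusted p = 0.882 and 0.0461). A lone array left in a group is assumed to vary like the other groups in such fits. The pre-granulosa call of Alas2 was kept under 9 of 20 alternatives. It was lost after median centring (adjusted p = 0.0147), after quantile normalization over all 8 arrays and without moderation. It was also lost with a weight per group, with only the 4 arrays compared, and without any 1 pre-granulosa, testis or ovary array.

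The direct difference between the sorted cell types, Sertoli minus pre-granulosa, was 3.02 ± 0.66 for Alas2 and did not pass the threshold (adjusted p = 0.0566 in limma, with a 95% interval from 1.42 to 4.62). Both Sertoli arrays read higher than both pre-granulosa arrays, but 7884 of all 18193 genes likewise did not overlap between these groups, in either direction. As the pre-granulosa arrays were below background, the difference measured from the background level was at least 2.48. The test of whether this difference exceeded that of testis minus ovary gave 3.25 ± 0.93 (adjusted p = 0.257 in limma), an estimate that also rests on the pre-granulosa arrays below background.

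**Figure D2:**
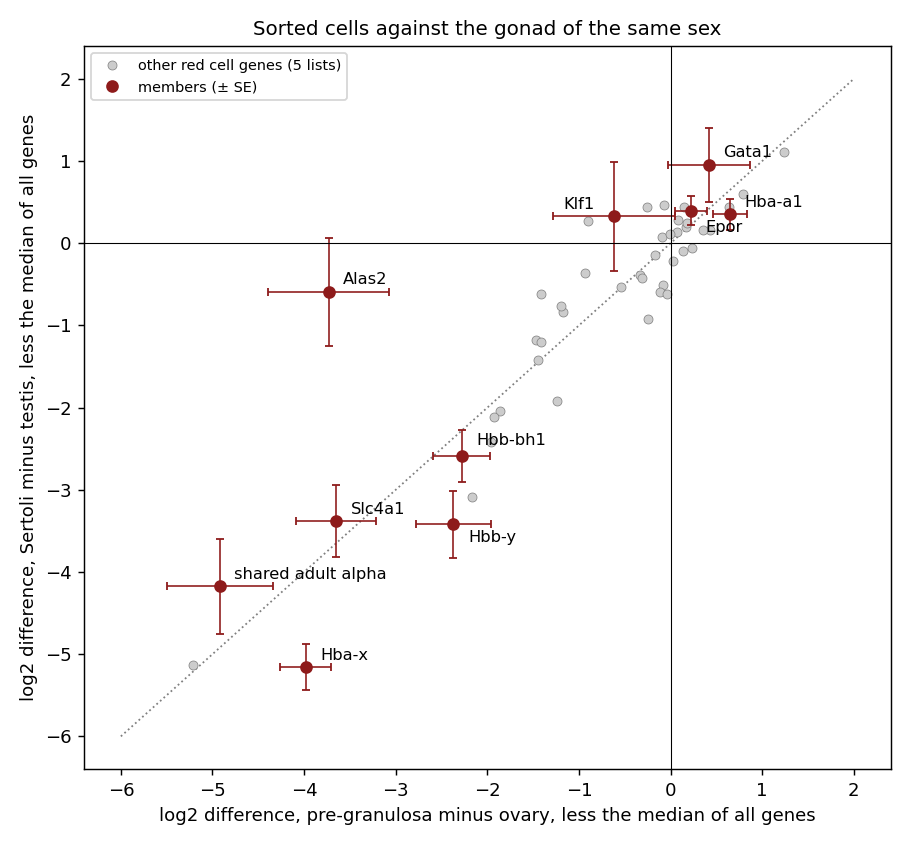
Log2 difference less the median of all genes for Sertoli minus testis (vertical axis) against pre-granulosa minus ovary (horizontal axis), with standard errors for the members (red points). Grey points are genes of 5 other red cell lists, and the dotted line marks equal differences. The globins and Slc4a1 lie far below 0 on both axes, Alas2 lies at -3.73 and -0.59, and Epor, Klf1, Gata1 and the Hba-a1 probe set lie between -0.62 and 0.96 on both axes.

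The transcription factors Klf1 and Gata1 did not follow the globins, and the receptor Epor was too near background in gonads to show a fall. Epor, the receptor through which erythropoietin keeps red cell precursors alive, read 4.82 and 5.11 in Sertoli cells, 4.95 and 5.03 in the pre-granulosa cells, 4.77 and 4.96 in testes and 5.04 and 5.29 in ovaries. These levels straddle or barely exceed the background level of 4.78. Sertoli and testis arrays overlapped, while both ovary arrays lay just above both pre-granulosa and both testis arrays, and no difference was called. Klf1, an activator of globin genes, read 6.32 and 6.62 in Sertoli cells, 6.84 and 4.59 in the pre-granulosa cells, 6.32 and 6.55 in testes and 6.63 and 6.82 in ovaries. The pre-granulosa arrays were the highest and the lowest of the 8, and the rest lay between 6.32 and 6.82. Klf1 differed by -0.62 ± 0.66 in pre-granulosa cells against ovaries, which was not called. Without pre-granulosa replicate 1 the difference was -1.69 ± 0.22 and was called (adjusted p = 0.00505), and without replicate 2 it was 0.43 ± 0.22 (adjusted p = 0.737). These errors come from the spread of the other groups, and the pre-granulosa arrays themselves read 6.84 and 4.59.

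Gata1 is the erythroid and megakaryocyte transcription factor that binds the GATA letters, and in postnatal mice it is also made by Sertoli cells. It read 6.44 and 7.17 in Sertoli cells, 7.67 and 6.58 in the pre-granulosa cells, 5.85 and 6.44 in testes and 7.36 and 6.86 in ovaries. The sorted-cell arrays overlapped the gonad arrays, and testis replicate 1 was the lowest of the 8, with testis replicate 2 level with Sertoli replicate 1. No difference of Gata1 was called, the XY one (Sertoli minus testis) being 0.96 ± 0.45 and the XX one (pre-granulosa minus ovary) 0.42 ± 0.45. Testis minus ovary was -0.96 ± 0.45.

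Counted over the 9 genes, 4 were lower in Sertoli cells than in testes (Hba-x, Hbb-y, Hbb-bh1 and Slc4a1), where 8.71% of all 18193 genes were lower. In pre-granulosa cells 5 were lower than in ovaries (the same 4 and Alas2), against 9.12% of all genes. Over both sexes 5 of 9 were lower in sorted cells, against 22.0% of all genes, and 14 of the 18 probe sets were lower, against 18.2% of all probe sets. The median difference of the 9 genes was -2.16 over both sexes (-1.88 with Alas2 of pre-granulosa cells set to the background level), where that of all genes is 0 by construction. Hba-x, Hbb-y, Hbb-bh1 and Slc4a1 were called over both sexes under all 19 alternative settings, and Alas2 under 10 of them. The counts within a sex depended on single arrays. The Sertoli count was 0 when either testis array was left out, 1 for either ovary array and 2 for either Sertoli array. The pre-granulosa count was 0 without either ovary array and 2 without either testis array.

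Between XY and XX groups no member passed. For Sertoli minus pre-granulosa 0 of 9 genes were called in limma, against 2.67% of all genes, and 1 (Alas2) had an unadjusted p under 0.05. For testis minus ovary 0 of 9 were called, against 0.352% of all genes, and 0 had an unadjusted p under 0.05. For the difference of these differences 0 of 9 were called and 0% of all genes, with Alas2 and Hba-x (-1.07 ± 0.40) under 0.05 before adjustment. The 95% interval of testis minus ovary ran from -0.13 to 1.23 for Hba-x, from -0.97 to 1.01 for Hbb-y and from -1.46 to 0.67 for Slc4a1. For Sertoli minus pre-granulosa it ran from -1.20 to 0.15 for Hba-x and from -1.92 to 0.06 for Hbb-y.

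**Figure D3:**
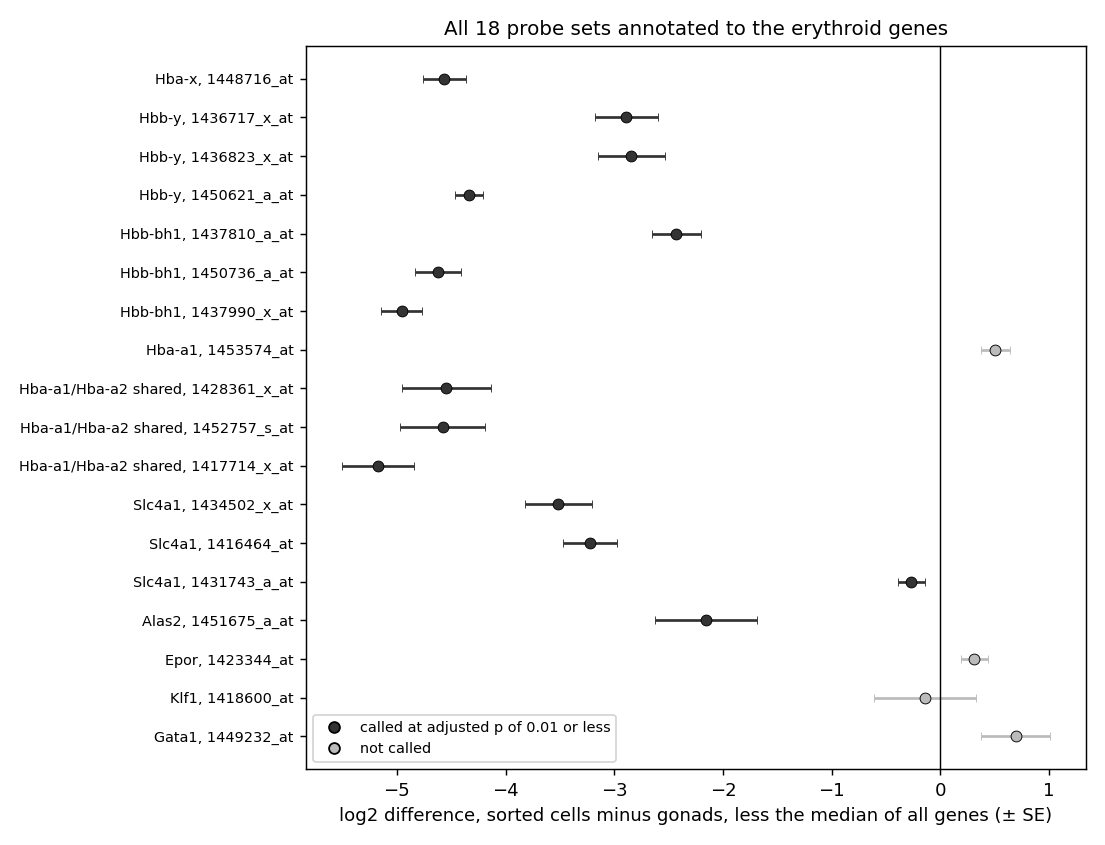
Log2 difference of sorted cells minus gonads over both sexes, less the median of all genes, for each of the 18 probe sets, with standard errors. Dark points were called at an adjusted p of 0.01 or less, a test of the difference before the median was taken off. Globin probe sets other than the one annotated to Hba-a1 alone lie between -5.18 and -2.43, and probe sets of 1 gene can differ widely.

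Other red cell genes are counted over both sexes, where 22.0% of all genes were lower in sorted cells (10.9% after median centring). Among the other globin genes, both measured ones fell over both sexes: Hbb-b2, an adult beta-globin, by 5.16 ± 0.19 (adjusted p = 8.44e-05) and Hba-a2 by 1.95 ± 0.44 (adjusted p = 0.00860). Hbb-b2 read 6.43 and 6.98 in Sertoli cells, 6.67 and 6.30 in the pre-granulosa cells, 11.93 and 12.32 in testes and 12.22 and 11.95 in ovaries. After median centring Hbb-b2 alone of the pair was called. Of 7 further heme synthesis genes 1 fell, Cpox, which makes protoporphyrinogen, by 1.32 ± 0.28, while Fech, which inserts the iron, was not called at -0.58 ± 0.23 and Urod differed by 0.30 ± 0.12. After median centring none of the 7 was lower and Ppox, named after its values were seen, was higher. The share of 14.3% lies below that of all genes. Of 8 genes of iron supply 3 (37.5%) fell. Abcb10, a mitochondrial transporter, fell by 1.31 ± 0.13, and Slc25a37, the mitochondrial iron importer mitoferrin, by 1.00 ± 0.18. Tfrc, the transferrin receptor, fell by 0.35 ± 0.11 and lost its call after median centring. After quantile normalization over all 8 arrays Abcb10 alone stayed called.

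Of 14 genes of the red cell membrane and skeleton 4 (28.6%) fell, near the 22.0% of all genes, and of 8 red cell enzymes 3 (37.5%) fell. The membrane genes were Gypc, a glycophorin (by 1.58 ± 0.23), and the blood group genes Rhd (by 0.53 ± 0.13), Ermap and Kel. Ermap read 4.24 to 4.84 in sorted cells, with both Sertoli arrays at background, against 6.14 to 7.66 in gonads. Kel was at background on every sorted-cell array (3.43 to 3.80, against 4.26 to 5.42 in gonads). Of these, Gypc and Ermap stayed called after median centring. The skeleton genes Tmod1 (0.26 ± 0.10) and Ank1 (0.10 ± 0.29) were not called, and the median difference over the 14 genes was 0.06. The enzymes were Bpgm, which makes the hemoglobin effector bisphosphoglycerate (by 2.63 ± 0.36), Car2, a carbonic anhydrase (by 2.19 ± 0.36), and Blvrb, a biliverdin reductase (by 1.43 ± 0.18), and all 3 stayed called after median centring.

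Of 15 erythroid transcription factors other than Klf1 and Gata1, 6 (40%) fell over both sexes, against 22.0% of all genes, and the median difference over the 15 was -1.02. Gata2, which precedes Gata1 in blood progenitors, fell by 2.34 ± 0.18, Tal1 by 1.94 ± 0.28, Lmo2 by 1.87 ± 0.16 and Bcl11a, a repressor of embryonic globin genes, by 1.86 ± 0.24. These genes are not particular to red cells: Tal1, Lmo2 and Gata2 are also made by endothelial cells. Between the sorted cell types, Sox6, a repressor of Hbb-y in mouse, was at background in pre-granulosa cells and higher in Sertoli cells by at least 3.01 measured from the background level (adjusted p = 0.00218). Nfe2, an erythroid and megakaryocyte factor, was higher by 2.89 ± 0.30 (adjusted p = 0.00577). Nfe2 read 8.76 and 9.07 in Sertoli cells, 6.30 and 5.75 in the pre-granulosa cells, 7.14 and 7.60 in testes and 6.41 and 6.98 in ovaries. Of 10 genes of the erythropoietin pathway and its target cells 2 (20%) fell, near the 22.0% of all genes. Both stayed called after median centring, where 10.9% of all genes were lower. They were Pim1, a kinase, by 2.04 ± 0.17, and Kit, the stem cell factor receptor, which is also a germ cell gene. Kit read 3.39 to 3.92 in sorted cells, all at background, against 6.94 to 7.45 in gonads (adjusted p = 0.000140).

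Markers of other blood and vessel cells varied along with some of these results. Of 12 endothelial markers 9 (75%) fell in sorted cells, against 22.0% of all genes. After median centring 7 fell, against 10.9% of all genes, and after quantile normalization over all arrays 4 fell. All 12 differences lay below 0, such as Emcn (by 3.04 ± 0.36) and Kdr (by 1.65 ± 0.09). The log2 of their summed signal was 10.46 to 10.78 in Sertoli cells, 9.19 to 10.09 in pre-granulosa cells, 12.18 to 12.39 in testes and 12.26 to 12.28 in ovaries, and of the defining markers Pecam1 was at background in both sorted cell types. Their part in the red cell results was not tested. Platelet and megakaryocyte markers went the other way: all 8 differences were above 0 less the median of all genes. Before that step some lay below 0, such as Itgb3 (8.17 in sorted cells against 8.48 in gonads). Of the 8, 1 was called, Ppbp, a platelet chemokine, which rose by 2.63 ± 0.41 (adjusted p = 0.00696), where 2.28% of all genes were higher. After median centring 4 were called higher. The log2 of their sum was 11.15 to 11.44 in Sertoli cells, 9.62 to 10.27 in pre-granulosa cells, 10.01 to 10.12 in testes and 9.73 to 10.03 in ovaries, and Gp6 was at background in all groups. Of 12 macrophage markers 4 (33.3%) fell over both sexes, against 22.0% of all genes. After median centring 2 fell, against 10.9% of all genes. In Sertoli cells against testes 9 of the 12 differences lay above 0 less the median of all genes, and 1 was called, Cx3cr1, which was lower. Before that step some of the 9 lay below 0, such as Mrc1 (6.95 against 7.14) and Tyrobp (7.26 against 7.48). In pre-granulosa cells against ovaries 10 of the 12 differences lay below 0, and 4 were called lower. The log2 of their sum was 10.16 and 11.95 in the Sertoli arrays and 8.37 to 8.54 in pre-granulosa cells. It was 10.16 to 10.27 in testes and 10.53 to 10.71 in ovaries.

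Sertoli replicate 2, the sorted-cell array with Alas2 at 8.26, also had the highest summed macrophage and platelet signal of the 4 sorted-cell arrays. Marker by marker it was the highest of them for 8 of 12 macrophage and 5 of 8 platelet markers, while Lyz2 (5.61 and 5.29 in Sertoli replicates 1 and 2), Fcgr1, Itga2b (8.23 and 7.60) and Itgb3 (9.11 and 8.76) were higher on Sertoli replicate 1. Csf1r, the macrophage growth factor receptor, read 6.54 and 10.86 in Sertoli replicates 1 and 2, against 5.38 and 3.65 in pre-granulosa cells. C1qb, a complement gene of macrophages, read 9.21 and 10.21 in Sertoli cells, against 4.69 and 5.75 in pre-granulosa cells, a called difference of 4.49 ± 0.45 (adjusted p = 0.00504). Pf4, a platelet chemokine, read 8.71 and 9.68 in Sertoli cells, against 5.96 and 8.08 in pre-granulosa cells. In pre-granulosa cells 5 of the 12 macrophage markers were at background, including Adgre1 and Mrc1, against 1 (Cx3cr1) in Sertoli cells. The part of these cells in the Alas2 values was not tested.

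**Figure D4:**
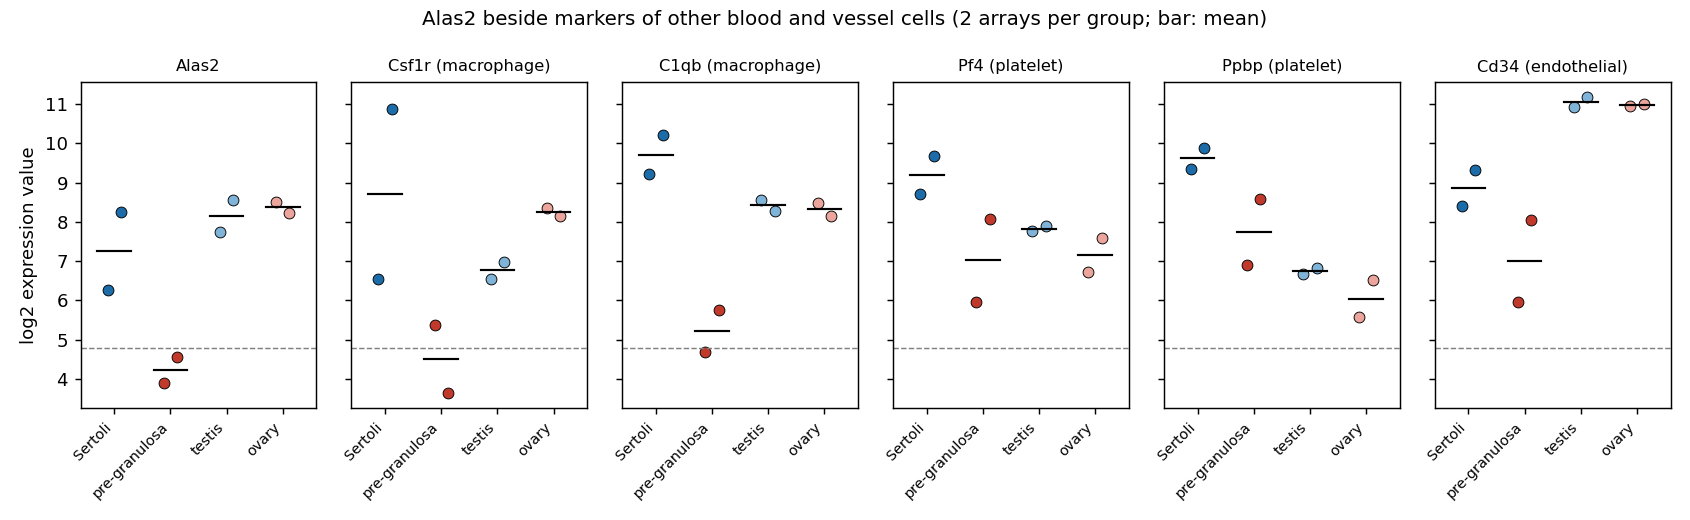
Log2 expression value on each array for Alas2 and for 5 markers of other cells (Csf1r and C1qb of macrophages, Pf4 and Ppbp of platelets, Cd34 of vessels). Points are arrays, bars are group means and the dashed line is the background level of 4.78. Sertoli replicate 2, the right-hand point of its pair, is the higher Sertoli array in these panels, with Csf1r at 10.86 and Alas2 at 8.26; over the whole lists it was the higher one for 10 of 12 macrophage, 6 of 8 platelet and 7 of 12 endothelial markers.

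The pattern of the 9 genes was summarised by the mean of their values, each centred on its own mean, over the 8 arrays. That mean correlated at 0.99 with Hbb-bh1, 0.97 with Hba-x and Slc4a1, 0.94 with Hbb-y and 0.78 with Alas2, which enter it, but at 0.50 with Klf1, 0.21 with Epor, -0.18 with Gata1 and -0.60 with the Hba-a1 probe set. Among 4697 other genes that ranged over at least 2 units, the nearest by Pearson correlation over the 8 arrays were Tdrkh (0.997), Clic4, Fjx1, Plekha6, Ranbp6, Blvrb, Polr1b, Phactr1, Tsen34 and Hbb-b2 (0.990). Of these, Blvrb and Hbb-b2 are in the red cell lists. The 8 points are 4 sorted-cell and 4 gonad arrays, and 321 genes exceeded 0.95. Tdrkh, whose product works in the piRNA pathway of germ cells, read 3.93 to 4.93 in sorted cells and 6.34 to 7.04 in gonads, a pattern of the same kind.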

How the data were processed

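The deposited values are log2 expression values per probe set of an Affymetrix mouse array, made with RMA per the submitters' processing notes. An R/maanova analysis at 1% false discovery, which the series text mentions, was not repeated here. The values were used as deposited. Control probe sets (64 of 45101) were left out, and limma 3.58.1 in R 4.3.3 fitted 1 mean per group over all 8 arrays with 4 residual degrees of freedom. Two-sided moderated tests were adjusted over 45037 probe sets by Benjamini-Hochberg. The procedure was first tested on simulated data. Each of 18193 genes is represented by its brightest single-symbol probe set, by mean of all arrays: 34945 probe sets carry 1 symbol, 932 several and 9160 none. The text names every member and, of each other list, up to 4 genes called with the largest sorted-minus-gonad difference, up to 2 not called with the highest mean, up to 2 called in each other comparison, and the 10 genes most correlated with the members. Pecam1 and Gp6 are named because they lie at background, and Fcgr1 and Itga2b because they were higher on Sertoli replicate 1, all after their values were seen. The members and lists were chosen with earlier results of these data known. Same-numbered replicates did not deviate together (correlations of -0.156 to 0.049), and the main fit used no pairing. Such correlations over all probe sets cannot exclude that same-numbered samples share a litter or day, which the labels do not state. Precision is limited by having 2 arrays in each group, among other things the report gives.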

Additional observations from a re-analysis of the deposited data

How the results depend on the processing

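Over both sexes 4 to 5 genes were called under each of the 19 alternatives, and no called value changed sign in any comparison. Alas2 ranged from -2.64 to -1.67 there. For Sertoli minus testis, 4 genes were called as reported, 1 without moderation of the variances, 2 with only the 4 arrays of the compared groups, and 0 to 4 when single arrays were left out. For pre-granulosa minus ovary, 5 genes were called as reported, 3 after quantile normalization over all 8 arrays, 3 after median centring, 3 with a weight per group, 0 without moderation, 0 with only the 4 arrays, and 0 to 5 when single arrays were left out. The cause of these losses was not tested. With the replicate number as a block the counts were again 4, 5 and 5, and the shared adult alpha-globin call in Sertoli cells was lost. For the comparisons between the sexes 0 members were called under any alternative. After median centring 10.9% of all genes were lower in sorted cells, against 22.0% as deposited. The list counts after median centring were chosen after seeing the data. A filter on dim probe sets left no value for Epor and the Hba-a1 probe set, and signals near background bound what these arrays can show for both.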

Other observations

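The balance of embryonic and adult alpha-globin signal was compared between the gonads after the values were seen. Hba-x minus the shared adult alpha-globin probe set was -1.93 and -2.13 in testes and -3.06 and -2.92 in ovaries, a difference of 0.96 (0.81 and 1.06 with the other shared probe sets). The arrays did not overlap, and the exact two-sided permutation p was 0.333, the smallest that 2 arrays against 2 can give. Relative to Hbb-b2, testis minus ovary was 0.32 for Hbb-bh1 on its brightest probe set and 0.58 and 0.49 on its other probe sets, and -0.02 for Hbb-y on its brightest probe set and 0.10 on another. In gonads that other Hbb-y probe set read 13.56 to 13.89, near 14.33, the highest value of any probe set. Whether this narrowed the difference of Hbb-y was not tested.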
